A study of Mus musculus with 13 samples.

Results

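Carnitine is the carrier on which long-chain fatty acids enter mitochondria, and its transport, synthesis and acyl transfer depend on a small set of genes. The 10 genes examined here were Slc22a5, Slc22a21, Slc25a20, Cpt1a, Cpt2, Crat, Crot, Bbox1, Aldh9a1 and Tmlhe, taken by gene symbol from the 22180 genes of an Affymetrix mouse array with at least 1 probe set of a single symbol. Each gene was read from its probe set with the highest mean over the 13 arrays. No cutoff on values picked the genes, but the set was chosen with earlier results of these data known. The RNA was from livers of male C57Bl/6J mice, aged 6 weeks at the start, and every group first had 4 weeks of free access to a 60% fat diet. Over the next 4 weeks the CANA group (4 arrays) received canagliflozin at 25 to 30 mg/kg with that diet. The CR group (5 arrays) had its calories reduced by 15 to 30% so that its weight matched that of CANA, and the HFD group (4 arrays) stayed on the diet. Canagliflozin inhibits the kidney glucose transporter SGLT2 and so causes glucose loss in urine. Whether the arrays stand for separate animals is not stated in the labels, so the p-values reflect the spread among these samples, which may be technical.

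In hepatocytes, the outer-membrane enzyme carnitine palmitoyltransferase 1 moves a fatty acyl group from coenzyme A to carnitine, a translocase exchanges the acylcarnitine across the inner membrane, and carnitine palmitoyltransferase 2 gives the acyl group back to coenzyme A for beta-oxidation. Malonyl-CoA, an intermediate of fatty acid synthesis, inhibits the outer-membrane enzyme. Liver also makes carnitine from trimethyllysine and takes it up from blood, and several of these genes are known targets of the fasting-activated receptor PPAR-alpha.

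The promoter sequences of 4 genes are shown because they cover the gene that passed the test (Slc22a5), the other gene whose CANA arrays lay apart (Crot), the enzyme of mitochondrial entry (Cpt1a) and a synthesis enzyme that did not pass (Bbox1). They are the 250 bases before the start given by RefSeq for GRCm38.p6, which covered 7 of the 10 genes. The windows are chr11:53891704-53891953 on the minus strand for Slc22a5, chr5:8997147-8997396 on the minus strand for Crot, chr19:3323051-3323300 on the plus strand for Cpt1a and chr2:110305726-110305975 on the minus strand for Bbox1. Capitals mark matches, on either strand, to 5 motifs. These were the GC box GGGCGG, the nuclear receptor half-site AGGTCA, the direct repeat of that half-site with any 1 base between its copies, the forkhead core GTAAACA and the TATA box TATAAA.
Slc22a5: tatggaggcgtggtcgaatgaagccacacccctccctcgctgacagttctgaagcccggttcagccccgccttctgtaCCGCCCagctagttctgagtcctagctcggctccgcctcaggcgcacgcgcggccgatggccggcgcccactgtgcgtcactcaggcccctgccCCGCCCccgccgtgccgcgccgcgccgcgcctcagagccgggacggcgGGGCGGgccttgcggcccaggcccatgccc
Crot: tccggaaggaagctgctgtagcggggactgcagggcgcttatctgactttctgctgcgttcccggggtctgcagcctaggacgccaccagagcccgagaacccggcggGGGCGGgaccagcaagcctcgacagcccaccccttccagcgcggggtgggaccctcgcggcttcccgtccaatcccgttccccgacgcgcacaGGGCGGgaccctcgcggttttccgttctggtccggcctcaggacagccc
Cpt1a: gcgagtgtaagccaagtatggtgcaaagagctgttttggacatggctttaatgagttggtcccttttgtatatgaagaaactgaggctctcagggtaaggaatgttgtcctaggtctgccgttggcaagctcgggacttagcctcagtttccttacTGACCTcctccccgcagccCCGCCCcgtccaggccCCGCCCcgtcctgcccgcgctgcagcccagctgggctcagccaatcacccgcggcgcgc
Bbox1: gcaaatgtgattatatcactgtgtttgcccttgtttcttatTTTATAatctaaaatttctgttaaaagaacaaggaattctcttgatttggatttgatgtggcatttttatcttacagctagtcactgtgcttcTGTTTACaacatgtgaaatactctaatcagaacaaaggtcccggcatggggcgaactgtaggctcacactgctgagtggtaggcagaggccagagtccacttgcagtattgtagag
The Slc22a5 window held 3 GC boxes, beginning 172, 78 and 30 bases before the start, and the Crot window held 2, at 142 and 49 bases. In Cpt1a there were 2 GC boxes, at 75 and 59 bases, and a nuclear receptor half-site on the opposite strand at 94 bases. In Bbox1 the search found a forkhead core at 116 bases and a TATA box at 209 bases, both on the opposite strand, and no GC box. The GC box occurred in 32.7% of 32851 promoter windows of the same length, the half-site in 14%, the forkhead core in 3.17% and the TATA box in 12.4%. The direct repeat was in 0.0335% of windows and in none of the 7. No matches overlapped in the printed windows. For Slc22a5, Cpt1a and Bbox1 the table's start lay inside the gene's outermost annotated start, by 93, 975 and 9088 bases, so these windows are of 1 of several possible starts. GC content was 73.6% in Slc22a5, 69.6% in Crot, 59.6% in Cpt1a and 39.6% in Bbox1, against a median of 52.4% over all windows.

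The 13 arrays had medians between 4.07 and 4.13 on the log2 scale and correlated pairwise at 0.977 to 0.989 across genes. The 13308 genes with a mean of at least 3.95, the 40th percentile, entered a single limma fit, and calls required a Benjamini-Hochberg adjusted p under 0.05. Of the 10 carnitine genes, 9 were tested. Hepatocyte markers such as Alb and Ttr averaged 14.01 and 13.69 over the arrays, and the mean of 8 such markers was 11.99 to 12.11 in CANA, 11.90 to 12.06 in CR and 11.83 to 12.01 in HFD. Of 53 listed markers of liver and other cell types, 38 were tested. None was called by limma in CANA vs HFD, CANA vs CR or CR vs HFD, where 0.165%, 0.15% and 0% of all tested genes were. An unadjusted p under 0.05 was found for 3, 6 and 0 of the markers, against 8.82%, 8.43% and 3.74% of all genes. The first of the numbers after the sample code in the labels was taken here as a serial number, and what it counts is not stated. Every group had arrays both in 1 to 8 and in 9 to 14, so values are also given within these sets.

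Slc22a5, which encodes the sodium-dependent carnitine transporter OCTN2 of the plasma membrane, was higher in canagliflozin-treated livers than in either other group. Its log2 values were 7.44, 7.71, 7.76 and 7.53 in CANA, 6.53, 6.78, 6.75, 6.61 and 7.37 in CR, and 6.63, 6.48, 6.87 and 6.91 in HFD. All 4 CANA arrays lay above every CR and HFD array, although CR replicate 5, at 7.37, was close to the lowest CANA array at 7.44 and apart from the other CR arrays. The mean was 7.61 ± 0.15 in CANA (SD, n = 4) and 6.72 ± 0.20 in HFD (n = 4), a 1.85-fold rise (log2 difference 0.89, SE 0.16, 95% interval 0.55 to 1.22, limma adjusted p = 0.0383). Set against CR, at 6.81 ± 0.33 (n = 5), the CANA level was 1.74-fold higher (0.80, SE 0.15, 95% interval 0.48 to 1.12, limma adjusted p = 0.0465). CR minus HFD was 0.087 (SE 0.15, 95% interval -0.23 to 0.40, limma adjusted p = 0.999). In bulk liver, a change in cell makeup and a change in RNA per cell cannot be told apart. The comparisons of CANA with HFD and with CR share the CANA arrays and are not independent.

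The Slc22a5 difference kept its sign in the alternative fits, whereas its call changed. CANA minus HFD lay between 0.76 and 1.02 over 25 alternative fits and CANA minus CR between 0.66 and 0.94. All fits reuse the same arrays, and many cannot move a difference of group means. Other filters, the trend and robust variance, and leaving out an array of the group not compared change only its error and adjusted p. Leaving out a single CANA or HFD array put CANA minus HFD between 0.81 and 0.95. Against HFD the gene was called in 13 of the 25 fits, and in 5 of the 13 that left out a single array. Without HFD replicates 1, 2, 3 and 4 the limma adjusted p was 0.092, 0.111, 0.0939 and 0.0647, without CANA replicates 2, 3 and 4 it was 0.0881, 0.148 and 0.0763, and without CR replicate 2 it was 0.056. Against CR it was called in 7 of 25 fits, and among the fits without a single array only where CR replicate 5 was left out (0.94, limma adjusted p = 0.00257). The called fit with a term for the replicate number also set CR replicate 5 aside, as no other group has that number. Leaving out any of the other 12 arrays gave a limma adjusted p between 0.0503 and 0.198. Within serial numbers 1 to 8 the CANA minus HFD difference was 1.02 and CANA minus CR 0.89, and within 9 to 14 they were 0.76 and 0.66, with no call in either set.

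**Figure D1:**
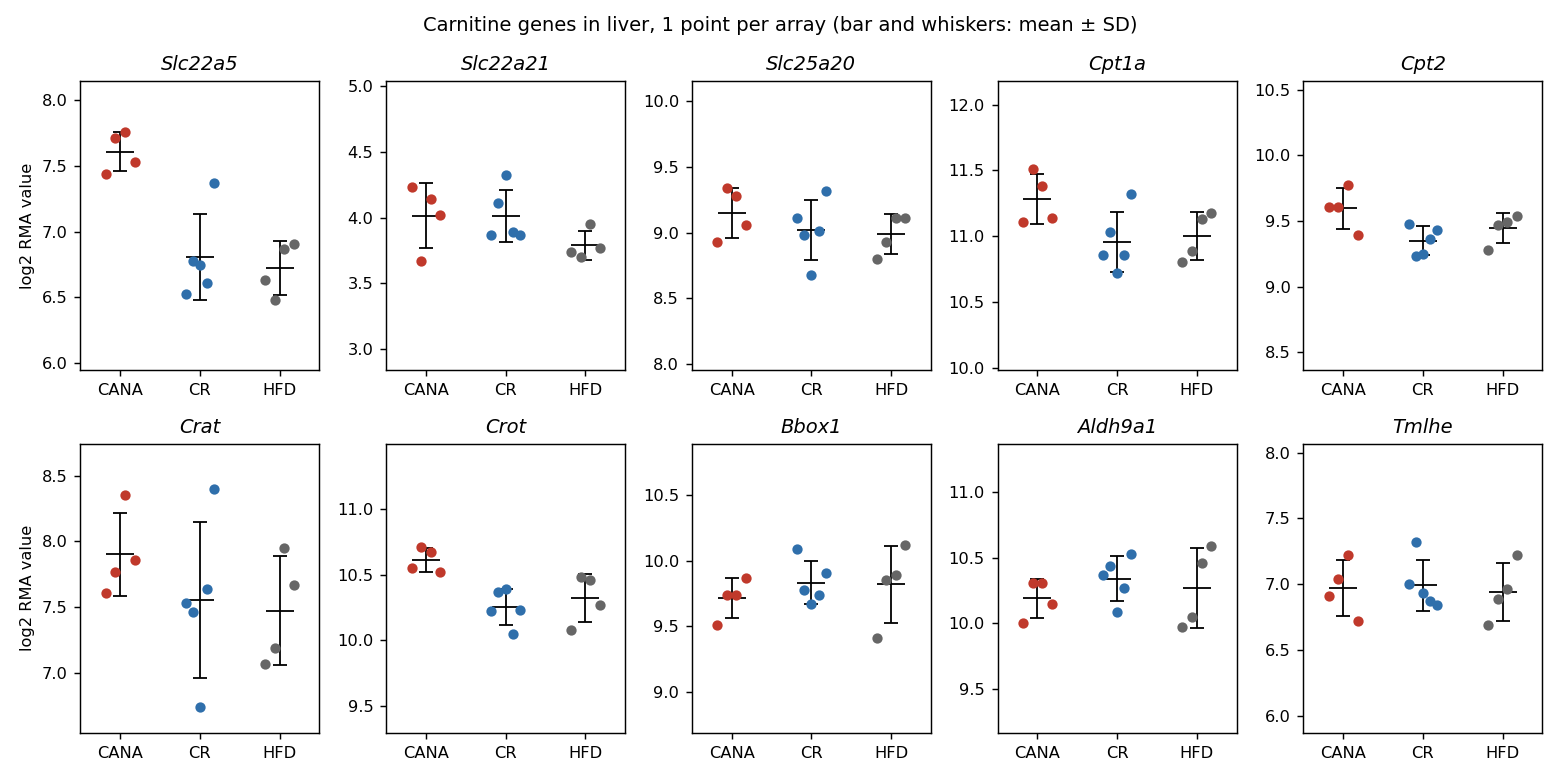
Log2 values of the 10 carnitine genes in liver (vertical axes, all spanning the same range of log2 units), with 1 point per array and groups CANA, CR and HFD from left to right; bars and whiskers are mean ± SD. The 4 CANA arrays of Slc22a5 (7.44 to 7.76) and of Crot (10.52 to 10.71) lie above every array of the other groups, while the remaining genes overlap.

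**Figure D2:**
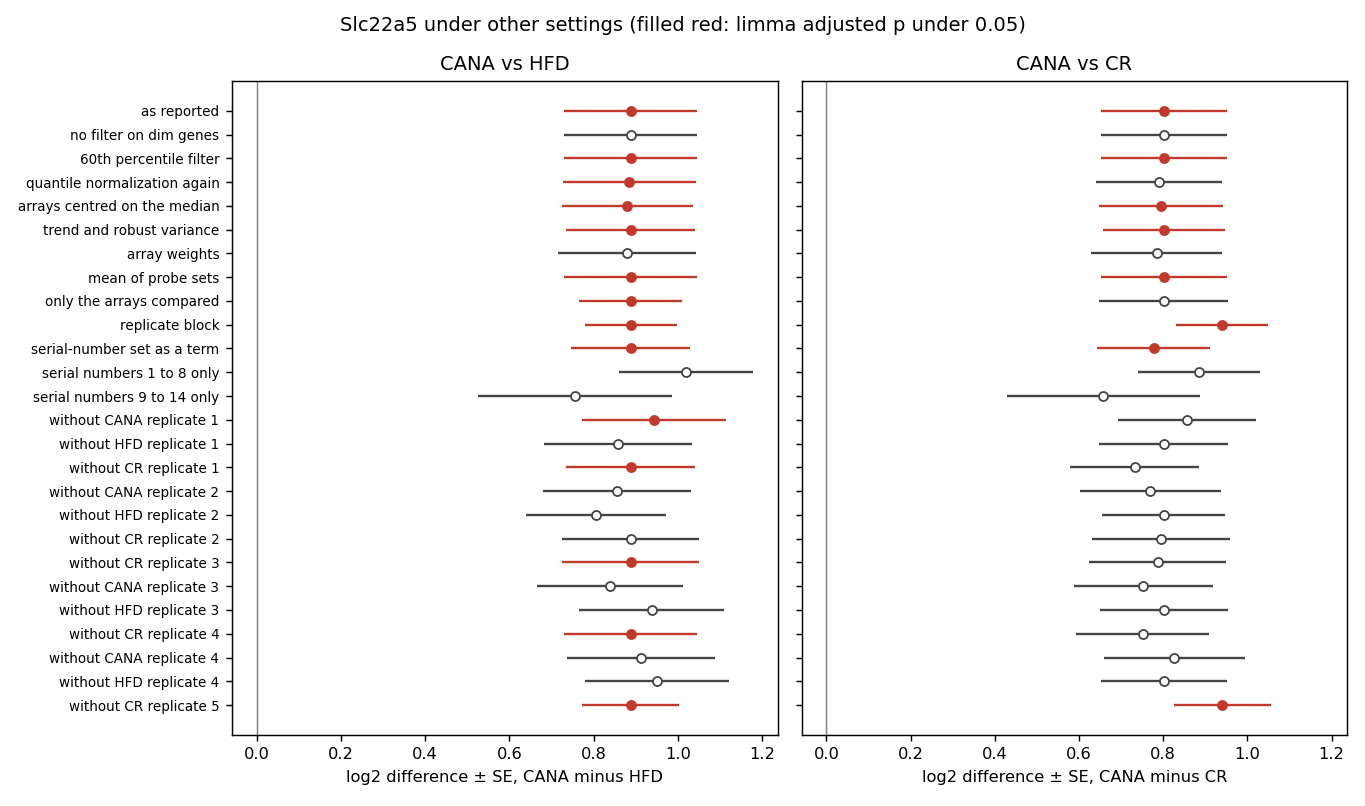
Slc22a5 log2 difference ± SE (horizontal axis) in the reported fit and in 25 alternatives (rows), for CANA minus HFD and CANA minus CR; filled red symbols have a limma adjusted p under 0.05. The differences lie between 0.76 and 1.02 and between 0.66 and 0.94, with 13 and 7 of the alternatives called. Many alternatives cannot move the difference and change only its error and adjusted p.

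Slc22a21 encodes OCTN3, a related carnitine transporter described in mouse. It lay just below the filter, with a mean of 3.94 over the arrays, and so was not among the tested genes. Its log2 values were 4.23, 3.67, 4.14 and 4.02 in CANA, 3.87, 4.11, 4.32, 3.89 and 3.87 in CR, and 3.74, 3.70, 3.95 and 3.77 in HFD, and the 3 groups overlapped. In the fit without the filter, over 22180 genes, CANA minus HFD was 0.23 (SE 0.13, limma adjusted p = 0.744), CANA minus CR 0.0031 (0.999) and CR minus HFD 0.22 (SE 0.12, 0.999). OCTN genes are paralogs, so their probes may take signal from each other.

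Slc22a5 and Slc22a21 lie in a cluster of transporter genes on chromosome 11 with Slc22a4, at chr11:53864542-53891796, chr11:53949954-53980333 and chr11:53983115-54030040 in GRCm38.p6. Slc22a4, the ergothioneine transporter OCTN1, did not pass and differed in the opposite direction, with a mean of 4.74 ± 0.13 in CANA, 5.08 ± 0.17 in CR and 5.21 ± 0.11 in HFD (SD, n = 4, 5 and 4). CANA minus HFD was -0.47 (SE 0.11, limma adjusted p = 0.113) and CANA minus CR -0.34 (SE 0.10, limma adjusted p = 0.315). Within 250 kb of Slc22a5, 9 other protein-coding genes were annotated and 5 of them tested, a window chosen after the values were seen. None of these 5 was called by limma against HFD or CR, where 0.165% and 0.15% of all tested genes were called. Il13, Rad50, Irf1, Slc22a4 and P4ha2 had CANA minus HFD differences of 0.15, -0.23, -0.18, -0.47 and -0.13. For Slc22a4 the unadjusted limma p was 0.00058 against HFD and 0.0047 against CR.

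The carnitine acyltransferases and the mitochondrial carrier had higher means under canagliflozin, but none of the 5 was called. Crot, the carnitine octanoyltransferase that acts on medium-chain products of peroxisomal oxidation, came closest. Its log2 values were 10.55, 10.71, 10.67 and 10.52 in CANA, 10.22, 10.37, 10.39, 10.05 and 10.23 in CR, and 10.08, 10.48, 10.46 and 10.27 in HFD. As with Slc22a5, its CANA arrays did not overlap those of the other groups. CANA minus HFD was 0.29 (SE 0.11, 95% interval 0.061 to 0.52, limma adjusted p = 0.414) and CANA minus CR 0.36 (SE 0.10, 95% interval 0.14 to 0.57, limma adjusted p = 0.274). CR minus HFD was -0.070 (SE 0.10, limma adjusted p = 0.999). Crot was called in none of the alternative fits.

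Cpt1a, the liver form of carnitine palmitoyltransferase 1 and the regulated step of mitochondrial fatty acid entry, had log2 values of 11.11, 11.51, 11.38 and 11.14 in CANA. It had 10.86, 11.03, 10.72, 10.86 and 11.32 in CR, and 10.80, 10.89, 11.13 and 11.18 in HFD. The groups overlapped through CR replicate 5 and HFD replicates 3 and 4. The 1.22-fold higher mean in CANA than in HFD had an interval that reached just below zero (log2 difference 0.29, SE 0.14, 95% interval -0.0033 to 0.57, limma adjusted p = 0.572). Against CR the difference was 0.33 (SE 0.13, 95% interval 0.053 to 0.60, limma adjusted p = 0.519). Within serial numbers 1 to 8 CANA minus HFD was 0.46, and within 9 to 14 it was 0.11.

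Cpt2, which regenerates acyl-CoA on the matrix side of the inner membrane, had 9.61, 9.61, 9.77 and 9.39 in CANA, 9.48, 9.23, 9.25, 9.36 and 9.43 in CR, and 9.28, 9.47, 9.49 and 9.54 in HFD. The lowest CANA array lay among those of the other groups. CANA minus CR was 0.25 (SE 0.10, 95% interval 0.044 to 0.45, limma adjusted p = 0.512), and CANA minus HFD was 0.15 (SE 0.10, 95% interval -0.065 to 0.36, limma adjusted p = 0.744). Slc25a20, the carnitine-acylcarnitine translocase, averaged 9.15 ± 0.19 in CANA, 9.02 ± 0.23 in CR and 8.99 ± 0.15 in HFD (SD, n = 4, 5 and 4), with overlapping arrays. Its CANA minus HFD difference of 0.16 had a 95% interval of -0.12 to 0.45 (limma adjusted p = 0.805).

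Crat, the carnitine acetyltransferase that buffers short-chain acyl-CoA, was the most variable of the 10 genes within groups. It had 7.61, 7.77, 8.35 and 7.86 in CANA, 7.53, 7.46, 6.74, 7.64 and 8.40 in CR, and 7.07, 7.19, 7.95 and 7.67 in HFD. CR alone spanned 1.66 log2 units, more than any difference between group means. CANA minus HFD was 0.43 (SE 0.28, 95% interval -0.15 to 1.01, limma adjusted p = 0.719), and CANA minus CR 0.35 (SE 0.26, limma adjusted p = 0.765). The level also differed with the serial number, at 7.34 ± 0.36 (SD, n = 7) within 1 to 8 and 7.98 ± 0.33 (n = 6) within 9 to 14. Within 1 to 8 CANA minus HFD was 0.57, and within 9 to 14 it was 0.29. With the serial-number set as a term in the fit, CANA minus HFD was 0.43 (SE 0.19, limma adjusted p = 0.481). The term cannot move this difference, because CANA and HFD have equally many arrays in each set. CANA minus CR was then 0.28 (SE 0.18, limma adjusted p = 0.65) and CR minus HFD 0.15 (SE 0.18, limma adjusted p = 0.958). The dimmer probe set of Crat, not used in the test, gave CANA minus HFD 0.038, CANA minus CR 0.30 and CR minus HFD -0.27.

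**Figure D3:**
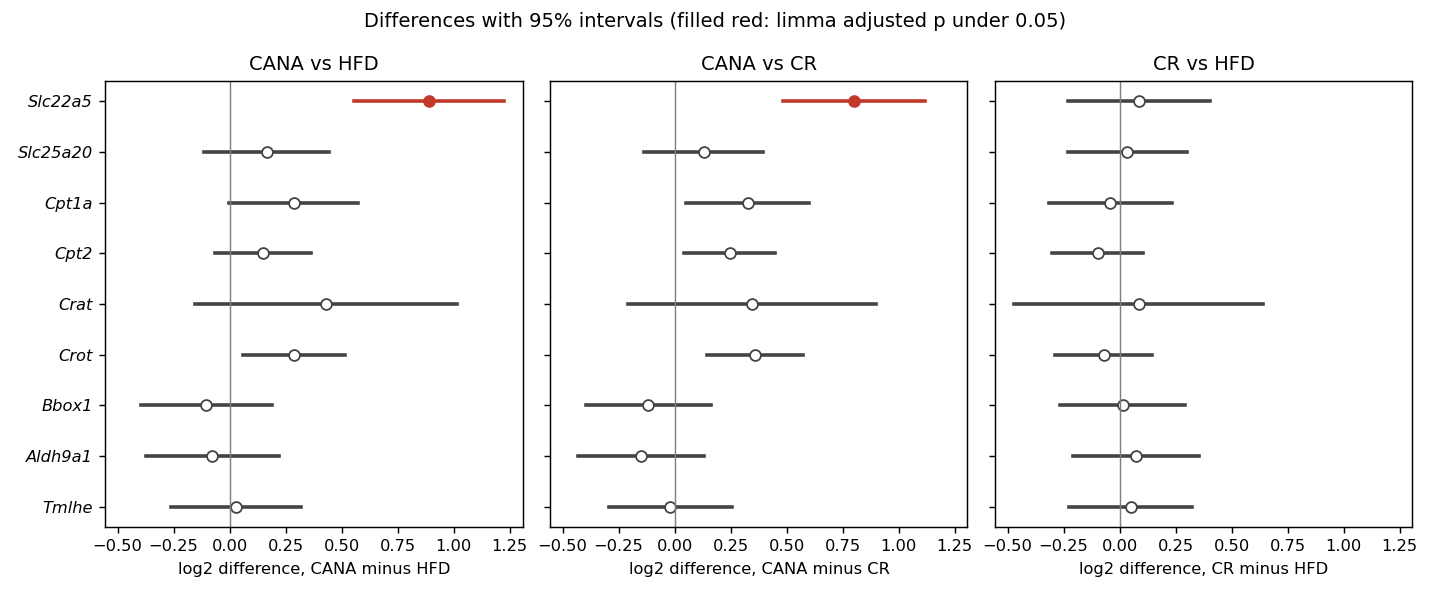
Log2 differences (horizontal axis) of the 9 tested carnitine genes with 95% intervals from limma, for CANA minus HFD, CANA minus CR and CR minus HFD; filled red symbols have an adjusted p under 0.05. Slc22a5 stands at 0.89 and 0.80 in the comparisons with CANA, the acyltransferases and carrier lie between 0.13 and 0.43 there, and the synthesis enzymes lie between -0.15 and 0.030.

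None of the enzymes of carnitine synthesis was called, and their difference from the acyltransferases was not tested. Tmlhe, the trimethyllysine dioxygenase of the opening step, averaged 6.97 ± 0.21 in CANA, 6.99 ± 0.19 in CR and 6.94 ± 0.22 in HFD (SD, n = 4, 5 and 4). Aldh9a1, the aldehyde dehydrogenase that forms gamma-butyrobetaine, averaged 10.19 ± 0.15 in CANA, 10.34 ± 0.17 in CR and 10.27 ± 0.30 in HFD. Bbox1, the dioxygenase that turns gamma-butyrobetaine into carnitine, averaged 9.72 ± 0.15 in CANA, 9.83 ± 0.16 in CR and 9.82 ± 0.30 in HFD. CANA minus HFD was 0.030 for Tmlhe (95% interval -0.26 to 0.32), -0.077 for Aldh9a1 (-0.37 to 0.22) and -0.10 for Bbox1 (-0.40 to 0.19). CANA minus CR was -0.019 for Tmlhe (95% interval -0.29 to 0.26), -0.15 for Aldh9a1 (-0.43 to 0.13) and -0.12 for Bbox1 (-0.40 to 0.16). The limma adjusted p of these differences was at least 0.81, and rises as large as that of Slc22a5 lay outside the intervals, whereas differences of the size seen for Cpt2 and Slc25a20 lay within them against HFD. Within serial numbers 1 to 8, CANA minus HFD was 0.19 for Tmlhe and 0.14 for Aldh9a1, and within 9 to 14 it was -0.12 and -0.30. A second probe set that carries Tmlhe together with another symbol was not used.

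Counted together, 1 of the 9 tested genes, Slc22a5, was called in CANA vs HFD, where 0.165% of all tested genes were called, and 2 of the 9 had an unadjusted p under 0.05, against 8.82% of all genes. The same gene was the 1 called in CANA vs CR, where 0.15% of genes were called, and 4 of the 9 had an unadjusted p under 0.05, against 8.43%. In CANA vs HFD the CANA arrays of 2 of the 9 genes, Slc22a5 and Crot, all lay above the HFD arrays, as in 2.13% of all genes. In CANA vs CR the same 2 genes had CANA arrays wholly above the CR arrays, against 1.42% of all genes. Differences were above zero for 7 of 9 genes in CANA vs HFD and 6 of 9 in CANA vs CR, where 46.1% and 48.8% of all tested genes were. The median difference was 0.16 in CANA vs HFD and 0.25 in CANA vs CR, and over all genes it was -0.014 and -0.0037.

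Caloric restriction to the weight of the treated mice gave no call among the carnitine genes. In CR vs HFD none of the 9 was called by limma and none had an unadjusted p under 0.05, where 0% of all genes were called and 3.74% had such a p. The differences lay between -0.098 in Cpt2 and 0.087 in Slc22a5, with a median of 0.035, and 6 of 9 were above zero, against 46.4% of all genes. For Slc22a5 the upper bound of the 95% interval, 0.40, lay below the CANA minus HFD difference of 0.89. Crat had the widest interval, from -0.47 to 0.64, so a rise of the size seen for Slc22a5 lay outside it as well.

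Several of these genes had their highest or lowest value in the same array. CR replicate 5 was the highest CR array for 5 of the 10 genes, Slc22a5, Slc25a20, Cpt1a, Crat and Aldh9a1. CR replicate 3 was the lowest for 5, Slc25a20, Cpt1a, Crat, Bbox1 and Aldh9a1. In HFD, replicate 1 was the lowest array for 8 of the 10 genes and replicate 4 the highest for 7, and in CANA replicate 1 was the lowest for 6. Markers of Kupffer cells, the resident macrophages of liver and 1 of several marker lists, also varied between arrays, without a common direction in those named above. The mean of all 6 was 6.19 in CR replicate 5, the lowest of the 13 arrays, against 6.77 to 7.19 in the other CR arrays. It was 7.31 in HFD replicate 1, the highest of the 13. CANA replicate 1 had the lowest CANA mean, 6.70, and CR replicate 3 was at 6.77. HFD replicate 4 was at 6.79 and HFD replicate 3 at 6.43. The mean of the 8 hepatocyte markers was 11.83 in HFD replicate 1, 11.99 in CANA replicate 1 and 11.90 in CR replicate 3. Each was the lowest of its group, as for many of the carnitine genes. It was 11.97 in CR replicate 5 and 11.84 in HFD replicate 4, neither the highest of its group. The part of Kupffer cells or hepatocytes in the levels of the carnitine genes was not tested. Without CR replicate 5, Slc22a5 in CR minus HFD was -0.053.

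**Figure D4:**
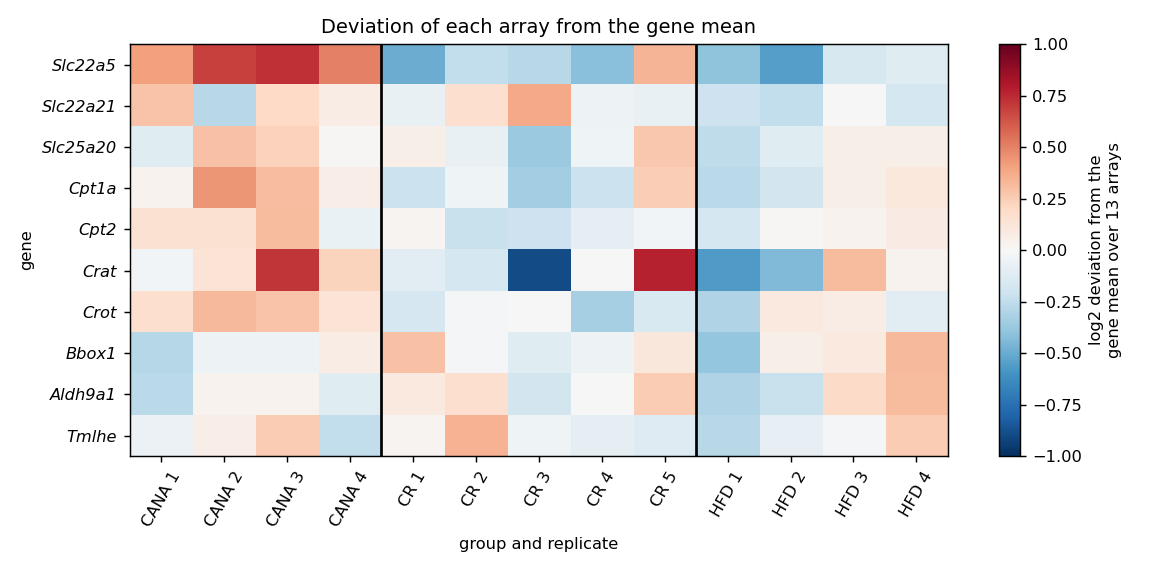
Deviation of each array (columns, CANA, CR and HFD replicates from left to right) from the mean of its gene over 13 arrays (rows), on the log2 scale from blue (low) to red (high). Slc22a5 is red in all 4 CANA arrays, and CR replicate 5 is red for Slc22a5, Slc25a20, Cpt1a, Crat and Aldh9a1.

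The genes whose log2 values followed those of Slc22a5 most closely over the 13 arrays were Flot1 (Pearson r = 0.931), Lepr (0.929), Grpel2 (0.909), Ctcflos (0.897) and Tmed5 (0.896). These coefficients describe 13 arrays that share the group differences, and after each group was centred on its own mean they were 0.789, 0.672, 0.756, 0.529 and 0.502. For Cpt1a the closest were Kif1b (0.921), Insr (0.907), Sec23a (0.901), Dlgap1 (0.897) and Zfand5 (0.891). With the group means taken out they were 0.917, 0.877, 0.874, 0.877 and 0.905.

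The genes around the carnitine system were read from lists chosen with earlier results of these data known. Over all tested genes, 46.1% were above zero in CANA vs HFD and 48.8% in CANA vs CR. An unadjusted p under 0.05 was found for 8.82% and 8.43% of them, and 0.165% and 0.15% were called. Of the 15 mitochondrial beta-oxidation genes tested, 14 were above zero in CANA vs HFD (median 0.094) and 13 in CANA vs CR (median 0.13), with none called by limma and 4 and 6 at an unadjusted p under 0.05. Hadhb, the beta subunit of the trifunctional protein, differed by 0.33 and 0.37 (limma adjusted p = 0.48 and 0.414) from a level near the filter, with means of 4.36 in CANA, 3.99 in CR and 4.04 in HFD. Acadm, the medium-chain acyl-CoA dehydrogenase, averaged 11.59 ± 0.10 in CANA, 11.41 ± 0.17 in CR and 11.30 ± 0.21 in HFD (SD), a CANA minus HFD difference of 0.29 (limma adjusted p = 0.488). Of 11 peroxisomal genes, 6 were above zero in CANA vs HFD and 7 in CANA vs CR, with medians of 0.011 and 0.020, none called and 2 at an unadjusted p under 0.05 in each. The member with the smallest p against HFD, the bifunctional enzyme gene Ehhadh, was at 0.32 (limma adjusted p = 0.478).

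Of the 5 genes that set malonyl-CoA or its control, 4 were below zero in CANA vs HFD (median -0.17) and 5 in CANA vs CR (median -0.23), and none was called by limma (1 and 2 at an unadjusted p under 0.05). Over all tested genes 46.1% and 48.8% were above zero, 8.82% and 8.43% had such a p, and 0.165% and 0.15% were called. Acaca, the acetyl-CoA carboxylase of fatty acid synthesis, averaged 7.69 ± 0.24 in CANA, 8.12 ± 0.12 in CR and 8.22 ± 0.16 in HFD (SD). Its differences were -0.53 against HFD (SE 0.12, limma adjusted p = 0.11) and -0.43 against CR (SE 0.12, limma adjusted p = 0.257). Acacb, whose product acts at the mitochondrial outer membrane, was at -0.30 against HFD with a wide SE of 0.28. Of the other carnitine carriers and CPT1 isoforms, 5 were tested and none called by limma, with 2 at an unadjusted p under 0.05 against HFD and 2 against CR. Slc16a9, a carnitine efflux carrier, was at 0.29 against HFD and 0.33 against CR (limma adjusted p = 0.506 and 0.461).

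PPAR-alpha targets other than the carnitine genes were set apart after the values were seen. Of 16 tested, 15 were above zero in CANA vs HFD (median 0.77) and 16 in CANA vs CR (median 0.57), against 12 in CR vs HFD (median 0.14). Over all tested genes 46.1%, 48.8% and 46.4% were above zero. An unadjusted p under 0.05 was found for 11 of the 16 in CANA vs HFD, 9 in CANA vs CR and 1 in CR vs HFD, against 8.82%, 8.43% and 3.74% of all genes. Cyp4a31 was the 1 called, against HFD (2.15, limma adjusted p = 0.0109), where 0.165% of all tested genes were called. Against CR it was at 1.23 (limma adjusted p = 0.144). Cyp4a genes are close paralogs and can share probes. The coactivator gene Ppargc1a averaged 7.80 ± 0.60 in CANA, 6.71 ± 0.43 in CR and 6.43 ± 0.24 in HFD (SD), with differences of 1.37 against HFD and 1.09 against CR that did not pass (limma adjusted p = 0.0514 and 0.144). Ppara itself was at -0.055 against HFD (limma adjusted p = 0.962). Of acyl-CoA synthetases, 2 were tested and none called by limma (1 and 2 at an unadjusted p under 0.05 against HFD and CR), with Acsl5 at -0.32 and Acsl4 at 0.27 against HFD.

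**Figure D5:**
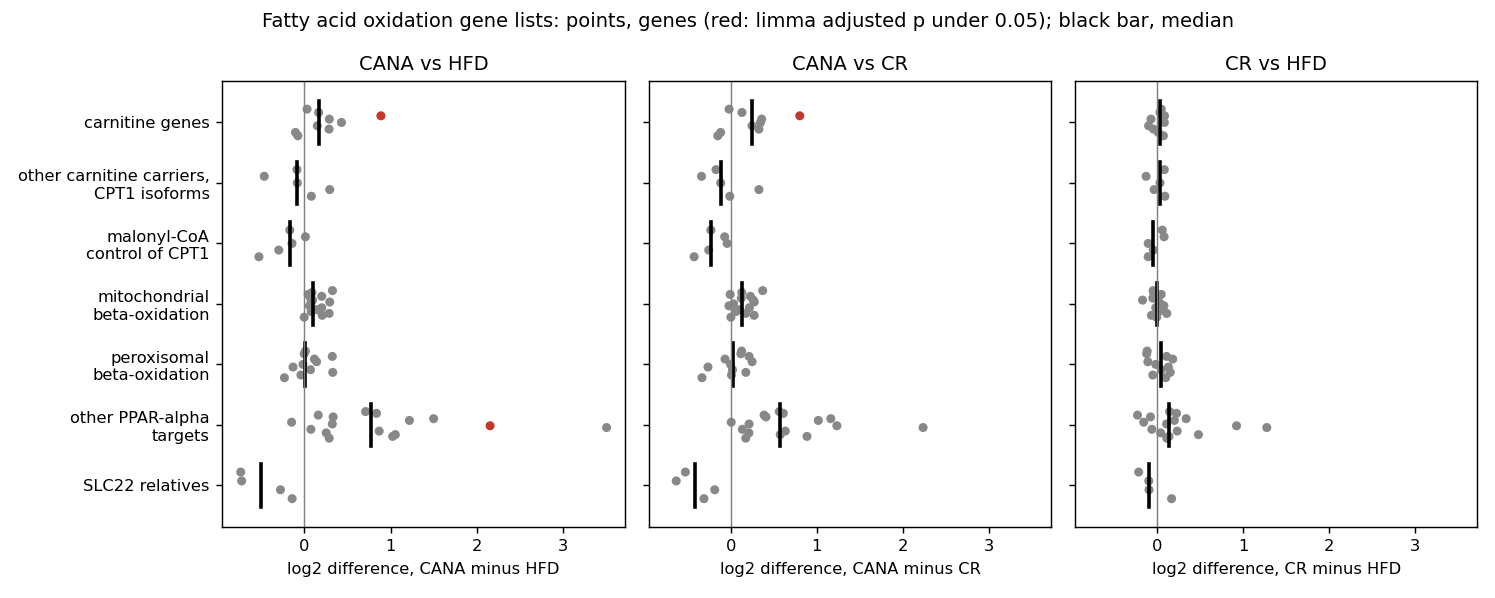
Log2 differences (horizontal axis) of single genes (points) in 7 lists of the carnitine and fatty acid oxidation system, for CANA minus HFD, CANA minus CR and CR minus HFD; black bars are medians and red points have a limma adjusted p under 0.05. Other PPAR-alpha targets have medians of 0.77 and 0.57 in the comparisons with CANA, and carnitine genes 0.16 and 0.25.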

How the data were processed

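Liver RNA was isolated with TRIzol and 250 ng went into WT Plus labelling, per the labels' protocols. The deposited log2 values are the authors' RMA output from Affymetrix Expression Console, per the submitters' processing notes, and versions are not given in the sources used here. The table held 41345 probe sets in 13 arrays, and carries no read depth; the number of arrays limits the precision. Scanner files were not used here.

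Probe sets were named through the platform annotation, with Entrez identifiers matched to RefSeq for 23328 of 23521 probe sets with exactly 1 symbol. Those with several (1814) or none (16010) were left out. Differences were tested two-sided by limma 3.58.1 (R 4.3.3) in 1 fit to 13 arrays without covariates (10 residual and 5.71 prior degrees of freedom), with Benjamini-Hochberg adjustment over all 13308 genes. Alternatives were other filters, normalizations, variance models and arrays. The pipeline was tested on simulated data. The members and lists, and the serial-number sets, were chosen with earlier results of these data known. Named genes are all members, up to 4 genes with the smallest p of each list, and the 5 genes most like Slc22a5 and Cpt1a without predicted loci. Named outside these rules were the tested neighbours of Slc22a5, the markers Alb and Ttr, and Slc22a26 and Slc22a6 of the SLC22 family.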

Additional observations from a re-analysis of the deposited data

How the results depend on the processing

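Leaving out single arrays moved the number of called genes between 3 and 38 in CANA vs HFD (22 as reported), between 7 and 23 in CANA vs CR (20), and left it at 0 in CR vs HFD. The called carnitine genes stayed between 0 and 1 in CANA vs HFD and in CANA vs CR, and at 0 in CR vs HFD. For CANA vs HFD, 12 genes were called with no filter on dim genes, 39 with the 60th percentile filter, 14 with trend and robust variance, 46 with the serial-number set as a term, 2 within serial numbers 1 to 8 and 0 within 9 to 14 (738 and 1290 at an unadjusted p under 0.05). The carnitine count was 0 with no filter, with array weights and within either set. For CANA vs CR, 5 genes were called within serial numbers 1 to 8 and 0 within 9 to 14 (881 and 910 at an unadjusted p under 0.05). There the carnitine count was 0 with no filter, quantile normalization again, array weights, only the arrays compared and within either set. More genes tested raise the adjusted p without the filter, and fewer arrays limit the sets; for the rest the cause was not tested. For CR vs HFD, 1 gene was called with the replicate block and 1 with the serial-number set.

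Same-numbered arrays of CANA and HFD correlated in their deviations at 0.30, 0.025, 0.17 and 0.17. Those of CANA and CR did so at 0.21, 0.13, -0.14 and 0.11, and those of CR and HFD at 0.040, 0.025, -0.15 and 0.12. Arrays with different numbers were not compared in this way, so these values cannot decide whether the numbers pair samples. The reported fit used no pairing. With the replicate block 29 genes were called in CANA vs HFD and 17 in CANA vs CR, Slc22a5 among them. Only CR has a replicate 5, so the block also takes that array out of the comparisons with CR. Its results there cannot separate pairing from the loss of CR replicate 5.

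Signs turned only for differences that were not called. With the replicate block, which takes out CR replicate 5, CR minus HFD was -0.053 for Slc22a5, -0.039 for Slc25a20, -0.13 for Crat and -0.0037 for Bbox1. With the mean of probe sets it was -0.091 for Crat. Within serial numbers 1 to 8, CANA minus HFD was 0.14 for Aldh9a1, and CR minus HFD was 0.025 for Cpt1a and 0.047 for Crot. Within 9 to 14, Tmlhe was at -0.12 in CANA minus HFD, 0.11 in CANA minus CR and -0.24 in CR minus HFD, where Bbox1 was at -0.19 and Aldh9a1 at -0.13. Over fits without a single array, CANA minus HFD ran from -0.18 to 0.030 for Aldh9a1 and from -0.053 to 0.12 for Tmlhe, and CANA minus CR from -0.10 to 0.066 for Tmlhe. CR minus HFD ran from -0.053 to 0.16 for Slc22a5, -0.039 to 0.12 for Slc25a20, -0.13 to 0.019 for Cpt1a, -0.13 to 0.29 for Crat, -0.12 to 0.11 for Bbox1, -0.027 to 0.18 for Aldh9a1 and -0.033 to 0.14 for Tmlhe.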

Other observations

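Other genes of the SLC22 transporter family, to which Slc22a5 belongs, differed in both directions. Of the 14 tested besides Slc22a5, taken by symbol after the values were seen, 4 were above zero in CANA vs HFD (median -0.15), 3 in CANA vs CR (median -0.14) and 7 in CR vs HFD (median 0.0013), against 46.1%, 48.8% and 46.4% of all genes. None was called by limma, against 0.165%, 0.15% and 0% of all genes. An unadjusted p under 0.05 was found for 6, 3 and 1, against 8.82%, 8.43% and 3.74% of all genes. Slc22a7, the organic anion transporter OAT2 of hepatocytes, was at -0.74 against HFD (SE 0.21, limma adjusted p = 0.228) and -0.53 against CR (limma adjusted p = 0.499). Slc22a30 was at -0.73 against HFD (SE 0.17, limma adjusted p = 0.108) and -0.63 against CR (limma adjusted p = 0.185). Slc22a26 was at 0.57 against HFD (SE 0.15, limma adjusted p = 0.185) and 0.23 against CR (limma adjusted p = 0.693), and Slc22a6 at 0.15 and -0.040.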
